A study of Homo sapiens with 6 samples.

Results

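The genes described here make, take up and export cholesterol and make and desaturate fatty acids. They were chosen as a list of 34 gene symbols, and a gene counted as measured where at least 1 probe set of the array carried its symbol and no other; 32 of the 34 were measured, of 15277 genes in all. FDFT1 and CYP51A1 had no such probe set and were not analysed here. A gene with several probe sets was read by the one with the highest mean over the 6 arrays. The cells were HFL-1, an established human line of fibroblasts from fetal lung, grown in F-12K medium with 10% fetal bovine serum. At 40% confluence and with polybrene at 5 μg/ml they received either a lentivirus carrying HYAL1 (GV492 backbone) or the empty control vector CON335, and the medium was changed after 16 h. RNA of 3 samples per group, which the titles call biological replicates, was hybridised to PrimeView arrays, and how long after infection the RNA was taken was not found in the sources used here. Nothing says that the replicates were separate infections, so the p-values measure the spread between these samples, which may be technical.

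Cholesterol is sensed in the membrane of the endoplasmic reticulum. When it is scarce, SCAP carries the precursors of the transcription factors SREBP-1 and SREBP-2 (from SREBF1 and SREBF2) to the Golgi, where proteases release their active parts, and when it is plentiful INSIG1 and INSIG2 hold SCAP back. SREBP-2 drives mainly the sterol genes and SREBP-1c the fatty acid genes, and oxysterols act through the liver X receptors on efflux genes such as ABCA1. Fibroblasts in serum take cholesterol from lipoproteins and also make it, and the classical work on sterol feedback was done in human fibroblasts.

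The targeted gene went against the sample labels. HYAL1 had log2 values of 4.81, 4.82 and 4.67 in the arrays labelled HYAL1 overexpression and of 7.48, 7.49 and 7.46 in the arrays labelled control vector, a difference of 2.71 (adjusted p = 7.78e-07 from limma, a linear model that borrows the variance estimate across genes, with the Benjamini-Hochberg adjustment over all genes). The two-sided exact permutation test gave p = 0.1, which is the least that 3 arrays against 3 can reach. The study's own table of changed genes heads the same arrays the other way round, and all 1664 of its genes carry under "NC" the values of the arrays labelled HYAL1 overexpression (tolerance 0.001 on the log2 scale). Every direction below is therefore given by label, as HYAL1-labelled or CON335-labelled arrays, and is the opposite of that table's headings. Differences printed with a sign are CON335-labelled minus HYAL1-labelled. Under that table's headings this is overexpression minus control, so their sign stays the same. The deposited values are log2 values made by RMA, and the array medians were 6.97 to 7.01. Fibroblast identity was checked on COL1A1, COL1A2, COL3A1, DCN, LUM, THY1, PDGFRA, PDGFRB and VIM, and all 9 lay above the median of the array's background probe sets, which match no human transcript (6.69 to 6.90 across arrays). The background probe sets themselves ran from 4.46 to 11.27, rising with their content of G and C, so their median is no limit of detection. Of the 9 fibroblast genes, COL1A1 differed between the groups (adjusted p = 0.0152 from limma, higher in the CON335-labelled arrays). Of the adipocyte genes ADIPOQ, FABP4, PLIN1 and LPL, 0 of 4 lay above that median in both groups. FABP4 was above it only in the mean of the CON335-labelled arrays (7.03). ADIPOQ and FABP4 had the higher mean under the CON335 label, PLIN1 and LPL under the HYAL1 label. The summed level of the 4 was 8.12 to 8.19 in the HYAL1-labelled and 8.23 to 8.24 in the CON335-labelled arrays on the log2 scale. The summed fibroblast level, 15.49 to 15.51 against 15.56 to 15.58, was on the same side. Of the epithelial KRT8, KRT18 and SFTPC 1 of 3 lay above it, of the endothelial PECAM1, CDH5, VWF and KDR 0 of 4, and of the leukocyte CD68 and CD3E 1 of 2 (KRT18 and CD68). The summed epithelial level was 8.67 to 8.72 against 8.78 to 8.81, the endothelial and leukocyte levels overlapped, and the part of any of these in the differences below was not tested. All 9 background probe sets had higher means under the HYAL1 label (differences of 0.022 to 0.141, log2), the side on which SCD lies below, and their part was not tested either.

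Promoter sequences were searched for exact letters of DNA elements known from sterol regulation. Such a search misses forms that differ in letters, so it cannot show that a gene lacks an element. In human promoters SREBPs bind sterol regulatory elements and some E-boxes, usually beside a CCAAT box read by NF-Y. Windows from the RefSeq table (GRCh38.p14) were used for 29 of the 32 genes, 39 in all. ACAT2 and FASN had none, and SQLE was left out with its chromosome, which was not done for the windows of all genes. The 250 bases before each start were searched on both strands for 3 motifs. These were TCACCCC, the inner letters of the classical sterol regulatory element, the palindromic E-box CACGTG, and CCAAT. None of the 3 contains another. CCAAT was found in 24 of the 39 windows (61.5%) and in 32.0% of the 35116 windows of all genes. CACGTG was found in 6 windows (15.4%), against 6.34% of all windows. TCACCCC was found in 3 windows (7.69%), those of SREBF2, INSIG2 and MVK, against 4.8% of all windows. The windows below are those of the 3 desaturase genes, of which SCD is the called gene, of ABCA1 and STARD4, which differ in opposite directions, and of SREBF2 and INSIG1, known sterol-responsive genes whose levels overlapped. Capitals mark the matches, which are matches of letters and not measured binding sites. The windows lie at chr10:100346983-100347232 (SCD, plus strand), chr11:61817004-61817253 (FADS1, minus), chr11:61815953-61816202 (FADS2, plus), chr9:104928156-104928405 (ABCA1, minus), chr5:111512536-111512785 (STARD4, minus), chr22:41832855-41833104 (SREBF2, plus) and chr7:155297628-155297877 (INSIG1, plus).
SCD: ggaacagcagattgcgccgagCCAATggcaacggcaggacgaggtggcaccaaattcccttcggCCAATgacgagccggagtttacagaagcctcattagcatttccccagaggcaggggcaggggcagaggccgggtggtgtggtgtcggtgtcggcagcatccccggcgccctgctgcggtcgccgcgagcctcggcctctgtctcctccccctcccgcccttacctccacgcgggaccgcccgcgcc
FADS1: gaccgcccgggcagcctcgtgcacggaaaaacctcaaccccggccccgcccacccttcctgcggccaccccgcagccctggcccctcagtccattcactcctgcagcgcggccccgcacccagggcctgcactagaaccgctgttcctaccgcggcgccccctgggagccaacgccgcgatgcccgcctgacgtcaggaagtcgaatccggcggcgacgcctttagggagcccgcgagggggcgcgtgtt
FADS2: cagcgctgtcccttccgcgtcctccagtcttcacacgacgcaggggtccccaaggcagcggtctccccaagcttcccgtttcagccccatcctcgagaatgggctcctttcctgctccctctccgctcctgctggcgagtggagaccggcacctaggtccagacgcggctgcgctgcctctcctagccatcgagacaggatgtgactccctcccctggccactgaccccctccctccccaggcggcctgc
ABCA1: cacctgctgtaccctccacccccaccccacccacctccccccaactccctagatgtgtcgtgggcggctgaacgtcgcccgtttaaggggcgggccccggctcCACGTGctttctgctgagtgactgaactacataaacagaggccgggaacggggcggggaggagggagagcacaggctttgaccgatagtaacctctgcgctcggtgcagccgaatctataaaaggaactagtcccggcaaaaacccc
STARD4: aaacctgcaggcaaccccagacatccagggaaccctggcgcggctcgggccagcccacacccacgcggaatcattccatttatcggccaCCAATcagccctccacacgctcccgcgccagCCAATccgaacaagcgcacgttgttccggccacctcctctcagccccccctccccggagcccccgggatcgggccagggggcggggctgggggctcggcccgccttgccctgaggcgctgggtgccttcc
SREBF2: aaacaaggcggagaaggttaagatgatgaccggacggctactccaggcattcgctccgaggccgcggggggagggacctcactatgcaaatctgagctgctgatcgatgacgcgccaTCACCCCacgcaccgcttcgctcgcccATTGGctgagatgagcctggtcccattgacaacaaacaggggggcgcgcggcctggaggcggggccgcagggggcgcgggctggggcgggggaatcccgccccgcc
INSIG1: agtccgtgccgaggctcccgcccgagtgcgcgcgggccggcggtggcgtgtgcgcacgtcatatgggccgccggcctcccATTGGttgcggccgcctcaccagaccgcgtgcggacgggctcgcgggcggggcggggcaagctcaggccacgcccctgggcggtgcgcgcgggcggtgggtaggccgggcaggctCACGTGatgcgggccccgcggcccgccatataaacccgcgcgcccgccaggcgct
SCD has 2 CCAAT boxes, which begin 229 and 186 bases before its start. STARD4 also has 2, at 161 and 130 bases. In SREBF2 the letters of the sterol element begin 133 bases and a CCAAT box on the other strand 106 bases before the start, and in INSIG1 a CCAAT box on the other strand begins at 170 bases and an E-box at 55 bases. ABCA1 has an E-box at 147 bases. The windows of FADS1 and FADS2 held 0 matches. These genes lie on opposite strands of chromosome 11 with overlapping first parts: the start of FADS2 lies 800 bases inside FADS1, so its window is within the body of FADS1. FADS2 has 2 listed windows, of which the first is shown.

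Of the 32 measured genes, SCD passed the test, with higher values in the HYAL1-labelled arrays, and 0 were called higher in the CON335-labelled arrays (adjusted p under 0.05 from limma). Among all 15277 genes 1.66% were called, 0.445% as higher in the HYAL1-labelled and 1.21% as higher in the CON335-labelled arrays, and nothing is read from a count of 1. At an unadjusted p under 0.05 there were 5 genes (15.6%), against 17.4% of all genes. Of these, SCD, ABCA1, FADS2 and LSS had their higher values under the HYAL1 label (9.69% of all genes did at that level) and VLDLR under the CON335 label (7.72%). The groups did not overlap for 12 genes (37.5%), 7 with higher values in the HYAL1-labelled and 5 in the CON335-labelled arrays, against 24.4% of all genes (14.1% and 10.3% by direction). The signs were split evenly, with 16 genes on each side. The median difference, CON335-labelled minus HYAL1-labelled, was -0.0007 on the log2 scale, against -0.0126 for all genes, and the median size was 0.04 (1.03-fold), against 0.05 for all genes. For 28 of the 32 genes the whole 95% interval of the difference lay within 0.2 on the log2 scale, or 1.15-fold, in either direction. The plot of differences shows each gene with its interval.

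**Figure D1:**
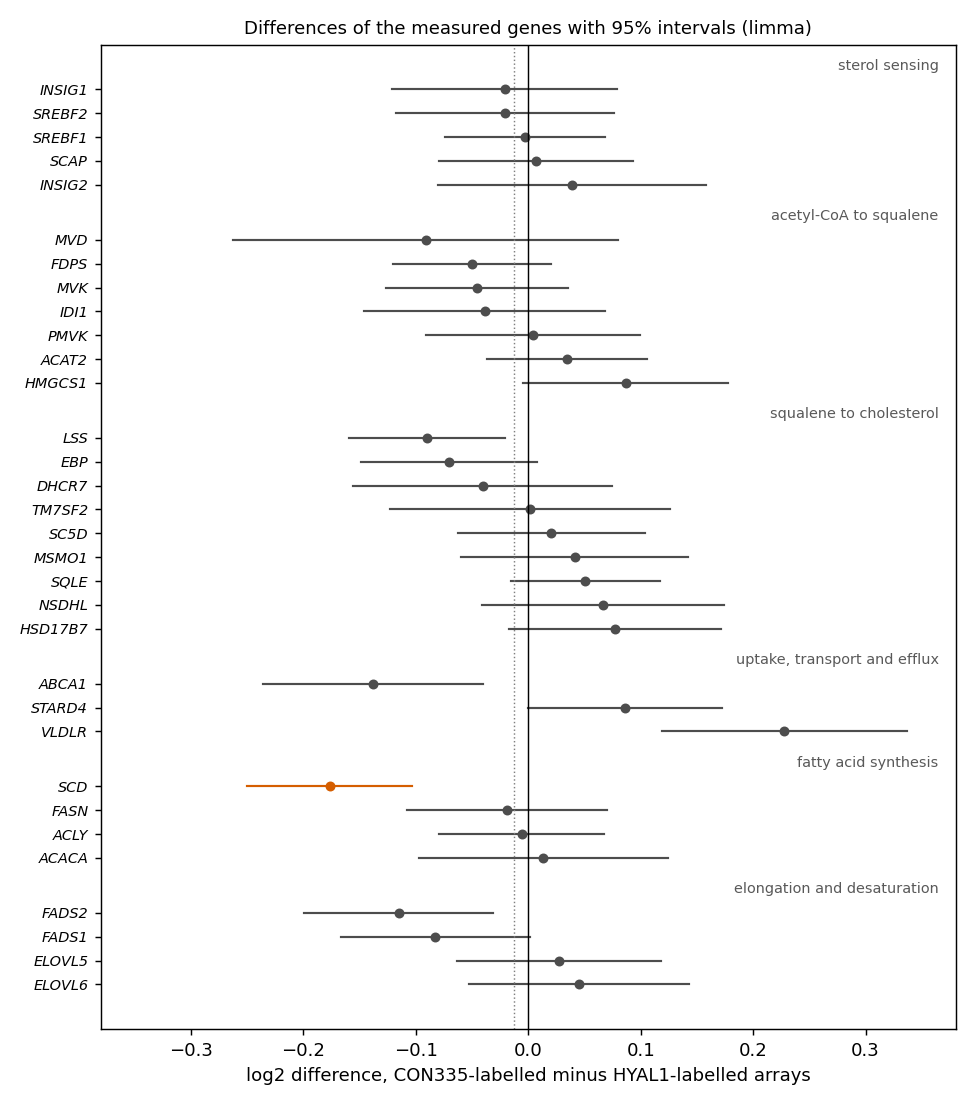
Log2 difference (CON335-labelled minus HYAL1-labelled arrays, 3 each) of the 32 measured genes, with points for the limma estimate and lines for its 95% interval, ordered within each role group. The dotted line is the median of all genes (-0.0126), and SCD, in colour, at -0.18 is the gene called at an adjusted p under 0.05.

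All arrays under the HYAL1 label had higher values of the 3 fatty acid desaturases than all arrays under the CON335 label, as was so for 14.1% of all genes, and SCD among them passed the test. These genes come from different role groups of the list (SCD from fatty acid synthesis, FADS1 and FADS2 from elongation and desaturation) and were put together with their results known. SCD encodes stearoyl-CoA desaturase, which puts the first double bond into saturated fatty acids. Its log2 values were 10.55, 10.56 and 10.55 in the HYAL1-labelled and 10.40, 10.34 and 10.38 in the CON335-labelled arrays. All HYAL1-labelled arrays lay above all CON335-labelled ones, and the HYAL1-labelled arrays were the tighter group (SD 0.00578 against 0.0322, n = 3 each). The group means were 0.18 apart (log2), or 1.13-fold (standard error 0.0312, adjusted p = 0.0448 from limma). Each array reads RNA of a whole culture, so fewer cells with the transcript and less transcript per cell cannot be told apart. The call is near the threshold. Without 1 array in turn SCD kept a difference of 0.16 to 0.19 with an adjusted p of 0.0830 to 0.179 from limma. The call was thus lost without each of the 6 arrays, while the calls over all genes fell from 253 to between 15 and 52. SCD was called in 6 of the 16 alternative settings.

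FADS2 encodes the delta-6 desaturase that starts the conversion of the essential fatty acids linoleic and alpha-linolenic acid into long polyunsaturated ones. It had 9.51, 9.53 and 9.54 in the HYAL1-labelled and 9.36, 9.46 and 9.41 in the CON335-labelled arrays. The groups did not overlap, and their means were 0.12 apart (log2, standard error 0.0358, adjusted p = 0.169). FADS1, the delta-5 desaturase of the same route, had 9.59, 9.59 and 9.62 against 9.46, 9.55 and 9.54. The groups were again apart, by 0.08 (standard error 0.0359, adjusted p = 0.297). The first CON335-labelled array was the lowest for both, and without it the differences were 0.09 for FADS2 and 0.05 for FADS1. Neither passed, but with variances shrunk toward a trend on mean level in place of 1 common value, FADS2 was called too (adjusted p = 0.0335). That setting called 6.7% of all genes, 2.81% as higher under the HYAL1 label, and 3 of the 32 here.

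The other probe sets of the desaturases gave the same direction. PrimeView reads SCD with 4 probe sets, FADS1 with 3 and FADS2 with 4, and in all 11 the HYAL1-labelled arrays lay above the CON335-labelled ones without overlap, as they did in 13.2% of all probe sets. The differences on the log2 scale were 0.18 to 0.24 for SCD, 0.08 to 0.15 for FADS1 and 0.11 to 0.15 for FADS2. Probe sets of 1 gene read the same RNA and are not replicates. In limma over all 39341 probe sets, 1.42% of which were called, 1 probe set of SCD passed (adjusted p = 0.0447) and the one used for the gene had an adjusted p of 0.0539. With the variance trend, added after seeing the data for probe sets, 11 of the 83 probe sets of these genes passed, against 6.45% of all probe sets: 4 of SCD, 3 of FADS2, 2 of FADS1 and 1 each of ABCA1 and SC5D.

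**Figure D2:**
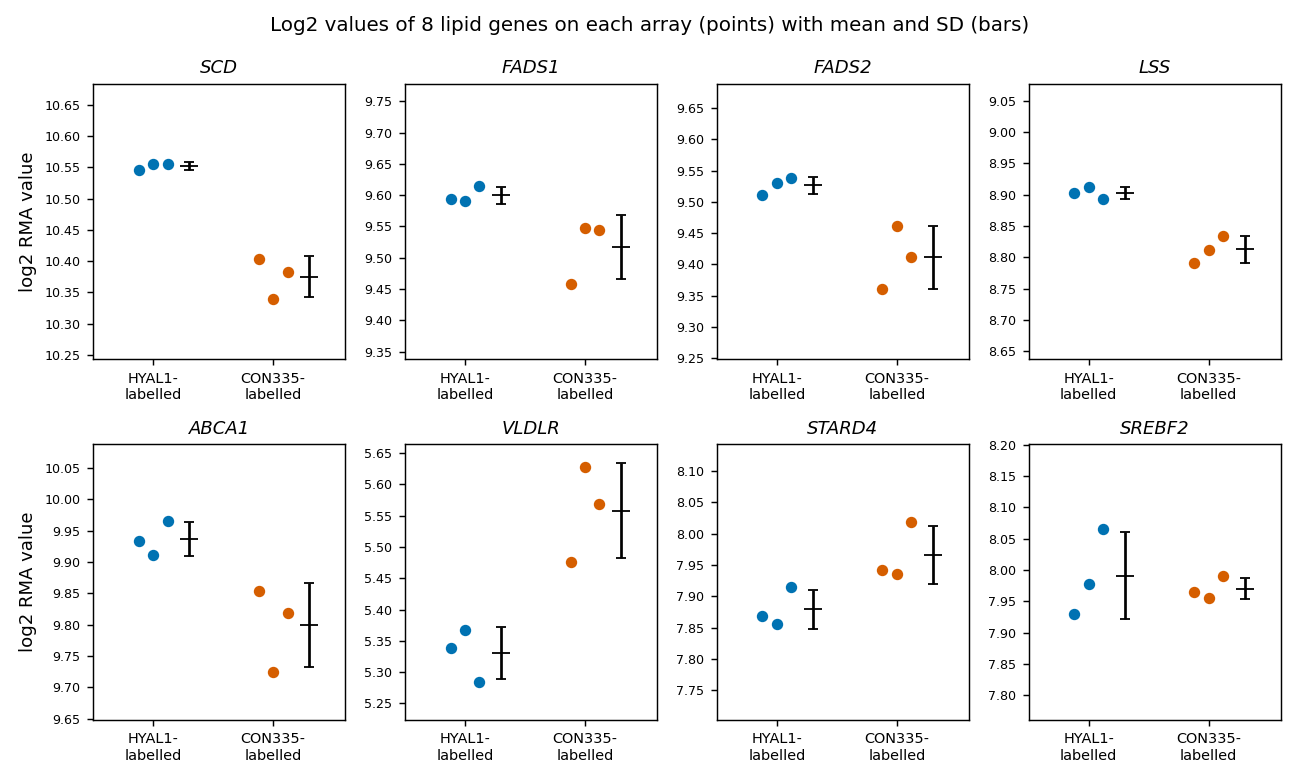
Log2 RMA values of 8 genes on each of the 6 arrays, with points for arrays and bars for the mean and SD of the 3 arrays of a group; each panel spans the same height on the log2 scale. SCD, FADS1, FADS2, LSS and ABCA1 lie higher in the HYAL1-labelled arrays and VLDLR and STARD4 in the CON335-labelled arrays, without overlap, whereas SREBF2 overlaps.

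The enzymes that supply and lengthen fatty acids overlapped between the groups, and 0 of 5 were called, also at an unadjusted p under 0.05. ACLY, which makes cytosolic acetyl-CoA from citrate, had 11.69, 11.70 and 11.73 in the HYAL1-labelled and 11.73, 11.69 and 11.68 in the CON335-labelled arrays. The 2 groups covered nearly the same range, and the 95% interval of the difference, CON335-labelled minus HYAL1-labelled, was -0.08 to 0.07 on the log2 scale. For ACACA, the acetyl-CoA carboxylase that commits carbon to fatty acids, the interval was -0.10 to 0.12. For FASN, the fatty acid synthase, it was -0.11 to 0.07. ELOVL5, which lengthens polyunsaturated fatty acids, and ELOVL6, which lengthens saturated and monounsaturated ones, differed by 0.03 (adjusted p = 0.766) and 0.04 (adjusted p = 0.633), both with overlapping groups and the higher mean in the CON335-labelled arrays. Without 1 array in turn these differences ran from 0.0055 to 0.055 for ELOVL5 and from 0.0101 to 0.0658 for ELOVL6. These genes thus lay on both sides of 0, each with an interval that held 0.

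Of the 5 genes of sterol sensing 0 were called, and the groups overlapped for each on the probe set used. SREBF2 had 7.93, 7.98 and 8.07 in the HYAL1-labelled and 7.97, 7.96 and 7.99 in the CON335-labelled arrays, where the HYAL1-labelled arrays enclose the CON335-labelled ones. A second probe set of SREBF2 did not overlap between the groups and gave 0.09 in favour of the HYAL1 label (standard error 0.0348, unadjusted p = 0.0329 and adjusted p = 0.248 from limma among all probe sets), and a further one overlapped, with 0.02. SREBF1 had 8.25, 8.28 and 8.23 against 8.24, 8.25 and 8.27, a difference of 0.00 with a 95% interval of -0.07 to 0.07. Its other 2 probe sets differed by 0.11 and 0.15, with overlap and the higher means under the HYAL1 label (adjusted p = 0.418 and 0.362 among all probe sets). INSIG1, an SREBP target as well as its brake, had 9.27, 9.37 and 9.37 against 9.34, 9.26 and 9.35, with an interval of -0.12 to 0.08. INSIG2 and SCAP also overlapped (adjusted p = 0.746 and 0.947). Over the 5 genes the median difference was 0.00, and 0 of 5 reached an unadjusted p of 0.05.

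From acetyl-CoA to squalene, 7 genes were measured and 0 were called, also at an unadjusted p under 0.05. HMGCS1, the cytosolic synthase at the head of the mevalonate route, had 7.94, 7.90 and 7.92 in the HYAL1-labelled and 7.98, 7.96 and 8.08 in the CON335-labelled arrays. All CON335-labelled arrays were the higher ones, 0.09 apart in their means (log2, standard error 0.0389, adjusted p = 0.311). Without the third of them the difference was 0.05. FDPS, the farnesyl diphosphate synthase, ran the other way with 9.70 in all 3 HYAL1-labelled arrays against 9.65, 9.62 and 9.67 (adjusted p = 0.442). ACAT2, a thiolase that joins acetyl-CoA units, was apart in the direction of HMGCS1 by 0.03 (adjusted p = 0.611). The groups overlapped for the mevalonate kinase MVK, the phosphomevalonate kinase PMVK, the decarboxylase MVD and the isomerase IDI1. For MVD the first CON335-labelled array stood low, at 7.98 against 8.21 to 8.27 in the other 5, and without it the difference went from -0.09 to 0.00. A second probe set of MVK gave 0.15 in favour of the HYAL1 label (adjusted p = 0.153 among all probe sets), where the one used gave 0.05.

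From squalene to cholesterol, 9 genes were measured and 0 were called, with 1 at an unadjusted p under 0.05. That gene was LSS, the cyclase that folds the squalene chain into lanosterol, with 8.90, 8.91 and 8.89 in the HYAL1-labelled and 8.79, 8.81 and 8.83 in the CON335-labelled arrays. The groups did not overlap, with means 0.09 apart (log2, standard error 0.0297, adjusted p = 0.189), and all 3 probe sets of LSS gave 0.09 to 0.12. EBP, the sterol isomerase, also lay higher in the HYAL1-labelled arrays, with 8.60, 8.58 and 8.61 against 8.48, 8.53 and 8.56 (difference 0.07, adjusted p = 0.335). SQLE, the epoxidase that makes the substrate of LSS, lay on the other side. It had 9.37, 9.36 and 9.38 in the HYAL1-labelled and 9.42, 9.42 and 9.43 in the CON335-labelled arrays. Here too the groups did not overlap, and the means were 0.05 apart (standard error 0.0283, adjusted p = 0.407). Of the 4 probe sets of SQLE, 3 gave this direction, 2 of them without overlap, and 1 gave 0.0055 in the other, with overlap. Of the remaining 6 genes, NSDHL, MSMO1, SC5D, HSD17B7 and TM7SF2 had the higher mean in the CON335-labelled arrays and DHCR7, the last reductase of the route, in the HYAL1-labelled arrays, all with overlap and adjusted p of 0.372 to 0.992. HSD17B7 was dimmer than the median background probe set in both groups (4.38 and 4.46), so its difference of 0.08 was measured at a low level. SC5D, a desaturase of the sterol ring, depended on the probe set in size but not in direction. The one used and the dimmest each gave 0.02, with overlap. The others gave 0.10 and 0.16 without overlap (adjusted p = 0.236 and 0.125 from limma among all probe sets). Genes of the sterol route thus lay on both sides of 0, with 0 called, and no order along the route is read from this. Over the 16 measured enzymes of both stretches 9 were higher in the CON335-labelled and 7 in the HYAL1-labelled arrays, with a median of 0.00.

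The 3 genes of uptake, transport and efflux were each apart between the groups, in 2 directions, as were 24.4% of all genes, and 0 of 3 passed. VLDLR, a receptor for triglyceride-rich lipoproteins and reelin, had 5.34, 5.37 and 5.28 in the HYAL1-labelled and 5.48, 5.63 and 5.57 in the CON335-labelled arrays. All CON335-labelled arrays were the higher ones, with means 0.23 apart (log2) or 1.17-fold (standard error 0.0465, adjusted p = 0.0655), the largest difference among the 32 genes. VLDLR was read by 1 probe set and was dimmer than the median background probe set in both groups. After renewed quantile normalization (adjusted p = 0.0422) and with array weights (0.0476) it was called. STARD4, a carrier of sterols between membranes and itself an SREBP target, had 7.87, 7.85 and 7.91 against 7.94, 7.94 and 8.02. Its CON335-labelled arrays were all higher, by 0.09 (standard error 0.0368, adjusted p = 0.287), and its 5 probe sets ran from 0.00 to 0.15 in that direction, 4 of them without overlap.

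ABCA1, the transporter that loads cholesterol onto apolipoprotein A-I, had 9.93, 9.91 and 9.97 in the HYAL1-labelled and 9.85, 9.72 and 9.82 in the CON335-labelled arrays. The HYAL1-labelled arrays were all higher, by 0.14 or 1.10-fold (standard error 0.0416, adjusted p = 0.160). Its other probe set gave 0.03 in the opposite direction (adjusted p = 0.764 among all probe sets). With the variance trend ABCA1 was called (adjusted p = 0.0176), and over the 2 probe sets averaged the difference was 0.05.

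**Figure D3:**
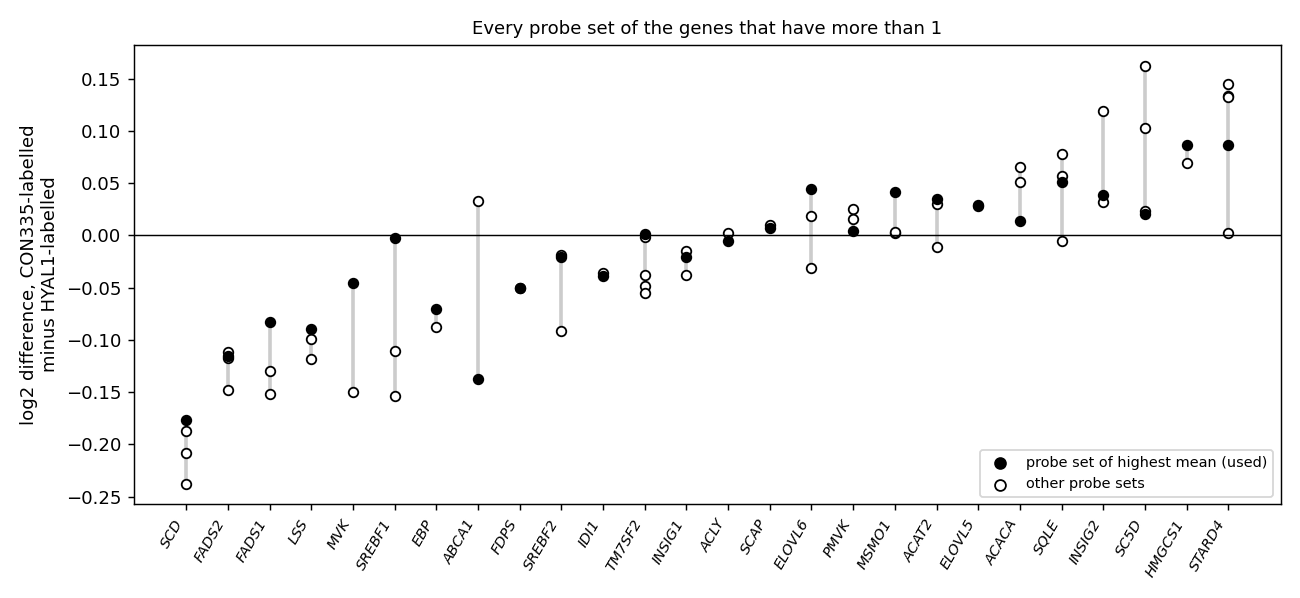
Log2 difference (CON335-labelled minus HYAL1-labelled) of every probe set of the 26 measured genes that have more than 1, with filled points for the probe set of highest mean and open points for the others. The probe sets of 20 of the 26 genes lie on 1 side of 0; those of SCD run from -0.24 to -0.18, and those of ABCA1 lie on both sides.

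Probe sets of 1 gene mostly gave 1 direction. Of the 26 genes with several, 20 (76.9%) had all of them on the same side, as had 51.9% of the 9345 genes with several probe sets in the whole table, which is not matched for their number. The exceptions were ABCA1, ACAT2, ACLY, ELOVL6, SQLE and TM7SF2. Of the 83 probe sets, 18 carry the suffix x, for probes that also match other sequences, and 16 the suffix s, for probes common to several transcripts, which can be of related genes. Among the probe sets used here 7 are of the x kind, those of FADS2, LSS and STARD4 included, and 9 of the s kind. All 4 probe sets of SCD are of these kinds, 3 of them s, with the one used, and 1 x. Signal shared with related sequences cannot be separated there.

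Across arrays, the spread within groups was of the same size as most differences. Each gene was set against its own mean over the 6 arrays, and these deviations were averaged per role group. For fatty acid synthesis, which holds SCD, the HYAL1-labelled arrays lay at 0.015 to 0.028 and the CON335-labelled ones at -0.035 to -0.009, but over its 3 genes other than SCD the groups overlapped (-0.008 to 0.007 against -0.026 to 0.029). For uptake, transport and efflux the order was turned, with -0.034 to -0.023 against 0.012 to 0.058. This order rests on VLDLR, which is dim and was 0.23 higher under the CON335 label. The other genes of that role group ran in opposite directions, STARD4 by 0.09 to the CON335 side and ABCA1 by 0.14 to the HYAL1 side. For the other 4 role groups the 2 groups of arrays overlapped. The first CON335-labelled array had the lowest value for 10 of the 32 genes and the third for 1, and the mean deviation over all 32 was -0.029 in the former and 0.020 in the latter, where the mean over all genes was -0.008 and -0.006. These 2 arrays of 1 group thus differed by more than any array of the HYAL1-labelled group from another (-0.003 to 0.011).

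**Figure D4:**
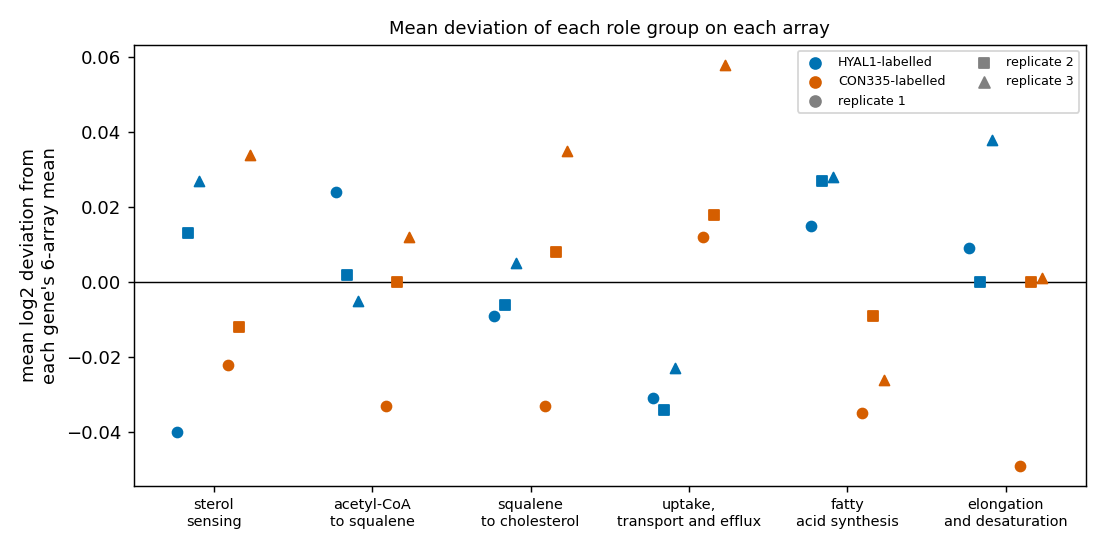
Mean log2 deviation of each role group from the 6-array means of its genes, on each array; colours give the group and shapes the replicate. The 2 groups of arrays are apart for uptake, transport and efflux (an order that rests on VLDLR) and for fatty acid synthesis (not without SCD). The first CON335-labelled array is low in several role groups.

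No gene of the wider pathway passed the test. A further list of 45 genes of SREBP processing, liver X receptors, sterol traffic, fatty acid activation and lipid storage had 40 measured members. Of these, 0 were called by limma in either direction, against 1.66% of all genes, and with an unpaired test without shared variances also 0. At an unadjusted p under 0.05 there were 11 (27.5%), 6 with the higher values under the HYAL1 label and 5 under the CON335 label, against 17.4% of all genes, and 17 (42.5%) had groups that did not overlap, against 24.4%. The median difference was -0.01 on the log2 scale. NPC2, the lysosomal protein that hands cholesterol on after lipoproteins are broken down, had 11.44, 11.46 and 11.44 in the HYAL1-labelled and 11.31, 11.24 and 11.27 in the CON335-labelled arrays. The HYAL1-labelled arrays were all higher, by 0.17 (standard error 0.0321, adjusted p = 0.0544). LBR, a sterol reductase of the inner nuclear membrane, and NR1H3, the liver X receptor alpha, were also higher there by 0.13 (adjusted p = 0.141) and 0.21 (adjusted p = 0.147), the latter dimmer than the median background probe set. On the other side, CYB5A, the cytochrome that passes electrons to desaturases, had 9.92, 9.95 and 9.93 under the HYAL1 label and 10.08, 10.04 and 10.07 under the CON335 label, 0.13 apart (standard error 0.0299, adjusted p = 0.0846). MBTPS2, the protease that makes the last cut of SREBPs, followed with 0.12 (adjusted p = 0.145), and PRKAA2, a catalytic subunit of AMP-activated kinase that was dimmer than the median background probe set, with 0.18 (adjusted p = 0.175). ABCG1, a liver X receptor target and another sterol exporter, was likewise dim and 0.16 higher under the CON335 label (adjusted p = 0.186). ABCA1 and SCD were higher under the HYAL1 label, and the part of liver X receptors in any of these differences was not tested. MYLIP and LPCAT3, further liver X receptor targets, overlapped, with means 0.04 and 0.0075 higher under the HYAL1 label (adjusted p = 0.587 and 0.936).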

How the data were processed

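RNA of 6 samples of HFL-1 cells was read on PrimeView arrays. The deposited log2 values are RMA output of Affymetrix Power Tools, run by the authors in versions that the sources used here do not give: background-corrected, normalized to common quantiles and summarised per probe set. Quantile normalization removes any shift common to all genes. Of 39341 probe sets, 36091 had 1 gene symbol, 1397 had several, 1780 had none and 73 were controls; symbols come from the platform annotation, and HYAL1, unnamed there, was identified by its values in the study's table of changed genes. Other genes of the pathway without a single-symbol probe set were not analysed here. Groups follow the sample titles. In R 4.3.3, limma 3.58.1 was fitted to 15277 genes (empirical Bayes, 1 prior variance, prior degrees of freedom 3.25), with Benjamini-Hochberg adjustment over all genes and a threshold of 0.05. The fit was tested on simulated data. It recovered 67.2% of genes changed 1.2-fold, 92.5% at 1.5-fold and 100% at 2-fold, with 0 in the wrong direction. Smaller changes were not simulated, and the largest difference among the 32 genes was 1.17-fold, so a gene not called can still have changed. Alternatives were other probe set rules, a filter on the lowest 30% of genes, other scalings, other variance models, the unpaired t-test that a figure legend of the study names (its methods state empirical Bayes linear models for these arrays), a block on replicate number and leaving out each array. The rule for naming took called genes and the 6 of lowest p in each direction. Of the wider list it took the 3 of lowest p in each direction. Among these, values on each array are not printed for HSD17B7, NSDHL, LBR, NR1H3, MBTPS2 and PRKAA2. ABCG1, MYLIP, LPCAT3 and the other members were named beyond that rule. The members, lists and tests were chosen with earlier results of these data known. Summaries used pandas 2.3.3 (Python 3.11.15) and plots matplotlib 3.10.9. The number of arrays limits the precision.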

Additional observations from a re-analysis of the deposited data

How the results depend on the processing

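SCD kept its direction in all 16 alternatives and was called in 6 of them. The number of the 32 genes called was 3 when variances were shrunk toward a trend on mean level and 3 with the robust form of that trend (SCD, FADS2 and ABCA1 in both), 2 after renewed quantile normalization and 2 with array weights (SCD and VLDLR in both), and 0 with the probe set of highest variance (SCD adjusted p = 0.143), after median centring (0.0589) and with the unpaired t-test (0.0677). It was 0 without each of the 6 arrays in turn. Over all genes the number called was 131 with the probe set of highest variance, 673 without the 30% of genes of lowest mean, 1024 with the variance trend, 1079 with the robust trend, 406 with array weights, 90 with the unpaired t-test and 15 to 52 without 1 array. Of the wider list 2 genes were called without the lowest 30% of genes, 1 after renewed quantile normalization, 4 with the trend, 5 with the robust trend and 1 with array weights, NPC2 in each of these. The number of probe sets called went from 1 to 11 with the trend over all probe sets. With the replicate block, 1 gene (HYAL1) was called and 0 of the 32 (SCD adjusted p = 0.126). Deviations of same-numbered arrays correlated at 0.0629, -0.0229 and 0.235, those of differently numbered ones at -0.234 to 0.161. Not every array correlated best with its own number. Deviations of 3 arrays from their own mean sum to 0, so these values cannot settle whether the replicates were paired.

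Of 510 values of single genes under alternatives, 463 kept direction and side of the threshold, 6 gained and 10 (all SCD) lost the call, and 31 changed sign. The latter belong to 14 genes whose main difference was at most 0.05 on the log2 scale, and the cause was not tested. TM7SF2 became -0.0283 with probe sets averaged and -0.0013 with the probe set of highest variance, which also gave -0.0055 for SQLE, 0.0021 for ACLY and -0.031 for ELOVL6. SREBF1 became 0.0007 after renewed quantile normalization and 0.0054 after median centring, which gave 0.0024 for ACLY, and PMVK became -0.0125 with array weights. Without 1 array in turn the ranges were -0.0148 to 0.0091 for SREBF1, -0.0514 to 0.0168 for SREBF2, -0.0137 to 0.0353 for SCAP, -0.0531 to 0.0083 for INSIG1, -0.007 to 0.0717 for INSIG2, -0.0335 to 0.0248 for PMVK, -0.0321 to 0.0443 for TM7SF2, -0.0012 to 0.0375 for SC5D, -0.0727 to 0.0083 for DHCR7, -0.0215 to 0.0046 for ACLY, -0.0184 to 0.0532 for ACACA and -0.0436 to 0.003 for FASN. Without 1 array in turn, 11 genes kept their sign but moved by over 1.5 times. They were ACAT2, HMGCS1, MVK, MVD, IDI1, MSMO1, NSDHL, HSD17B7, ELOVL5, ELOVL6 and FADS1, of which ELOVL6 is also among the 14 above.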
